A study of Macaca mulatta with 10 samples.

Results

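Adrenergic receptors are the receptors of noradrenaline and adrenaline. Of 8 adrenergic receptor genes looked up among the 28595 genes of the files by their symbols, 3 were matched to a gene by the name table used here, namely *ADRB3*, *ADRA1A* and *ADRA2C*, and all statements on order and share cover these 3 only. *ADRB1*, *ADRA1B*, *ADRA1D*, *ADRA2A* and *ADRA2B* were not matched to a row and were not analysed here. The RNA-Seq libraries came from 5 male rhesus monkeys that lived in one facility on the same chow, with 1 library of adipose tissue (labelled fat) and 1 of skeletal muscle (labelled muscle) from each animal. The 4 control monkeys are called control A (rhesus_920401 in the labels), B (rhesus_940129), C (rhesus_940313) and D (rhesus_950509), and the case, rhesus_950807, was hyperinsulinemic and heterozygous for *PRKD2* K410X. Ages, the adipose depot and the muscle sampled are not stated in what was read here, and 1 case animal cannot tell the mutation from any other trait of that monkey.

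The receptors fall into 3 classes by the G protein they couple to. Beta receptors act through Gs, which raises cAMP and activates protein kinase A; in adipocytes this drives lipolysis, and *ADRB3* is the beta receptor best known from adipose tissue. Alpha-1 receptors, *ADRA1A* among them, act through Gq and phospholipase C beta and are known from the contraction of vessels, and alpha-2 receptors, among them *ADRA2C*, act through Gi, which inhibits adenylyl cyclase and lipolysis.

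*ADRB3* had the highest mean level of the 3 receptors in control adipose tissue and no read in any muscle library. *ADRA1A* was the steadiest receptor in adipose tissue, and it led in 1 control animal whose *ADRB3* was low. *ADRA2C* was the only receptor with reads in every library, at a low level, and it had the highest RPKM of the 3 in each muscle library, although in that of control B *ADRA1A* had more reads. In the hyperinsulinemic monkey, *ADRA2C* lay above every control in adipose tissue and below every control in muscle, but neither difference passed the test across all genes.

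The libraries held 30669915 to 39379286 mapped reads in control adipose tissue, 35682861 to 43268985 in control muscle, and 41780234 (adipose tissue) and 33961486 (muscle) in the case. Levels are given as RPKM, reads corrected for the transcript's length and the library's mapped total. This allows levels of different genes to be compared as far as their transcript models are alike. Differences between groups are log2 differences from edgeR with TMM scaling, a factor per library that centres the bulk of genes, and a gene is called at an adjusted p under 0.05 and, between tissues, a log2 difference of at least 1 either way. Of the adipocyte markers (*ADIPOQ*, *PLIN1*, *LEP* and 3 others), 5 of 6 were called higher in control adipose tissue than in control muscle, while the gene named *FABP4* in the name table was called lower, against its known place in adipocytes. All 6 matched markers of skeletal muscle fibres (*ACTA1*, *CKM*, *MB* and 3 others) were called higher in muscle. The adipose libraries of controls A and C also held skeletal muscle transcripts, with summed marker RPKM of 258 and 167 against 18.0 to 41.5 in the other controls and 26.1 in the case; their *ACTA1* was at 0.350% and 0.280% of the mean of control muscle. Since whole tissue was sequenced, fewer cells of a type and less RNA per cell cannot be told apart in any of these levels.

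*ADRB3* (ENSMMUG00000005876) is a minus-strand gene of chromosome 8 (38420292 to 38422623; neither labels nor paper name the build). The transcript length used for its RPKM is 1296 bases, or 432 codons. The length used for *ADRA2C*, 1467 bases, is also a whole number of codons (489), while that of *ADRA1A*, 2444 bases, is not. Whether these models cover like parts of the transcripts was not tested. All orders and shares by RPKM rest on them. In control adipose tissue *ADRB3* was at 1.14 RPKM in control A, 26.0 RPKM in control B, 7.57 RPKM in control C and 10.9 RPKM in control D. Control B was far above the others and control A far below, and the mean was 11.4 ± 10.5 RPKM (SD, n = 4). These levels came from 48, 1033, 378 and 555 reads, so counting error (an exact Poisson 95% interval of 35.4 to 63.6 reads for the lowest) was small beside the spread between animals. *ADRB3* was above 59.2% of all genes in control A and above 92.6% in control B.

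All 5 muscle libraries had 0 reads of *ADRB3*. For a count of 0 the exact Poisson 95% interval reaches 3.69 reads, or 0.0658 to 0.0838 RPKM in these libraries, for counting error only. *ADRB3* mRNA was thus not detectable in muscle at this depth, and the adipose and muscle levels did not overlap. A floor of 3 reads was set over the whole muscle group, which is below that limit of 3.69 reads. On this floor the pooled control level was 268-fold higher in adipose tissue after TMM scaling and 732-fold higher per mapped read. These are bounds for that floor only and would be smaller at 3.69 reads. Control B weighed most on these bounds, and without it they were 119-fold and 350-fold.

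The range of *ADRB3* among control adipose libraries was wide for a gene. Its highest level was 22.8 times its lowest, while the median gene of the 14002 compared had a ratio of 2.15, and 1.37% of genes had a larger one. The coefficient of variation was 92.5%, against 39.3% for *ADRA2C* and 25.8% for *ADRA1A* in the same libraries. Without control B the mean of *ADRB3* was 6.53 RPKM.

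*ADRB3* was also set against the adipocyte markers. The summed RPKM of the 6 markers was 5127 in control A, 5899 in control B, 2345 in control C, 3870 in control D and 4093 in the case. Per 1000 RPKM of these markers, *ADRB3* was at 4.41 RPKM in control B, 3.23 RPKM in control C and 2.81 RPKM in control D. In control A it was at only 0.222 RPKM on this scale, and in the case at 1.14 RPKM. Control A thus had the lowest *ADRB3* and the second highest sum of adipocyte markers among the controls. This library had the highest summed RPKM of smooth muscle and pericyte markers (*MYH11*, *ACTA2*, *TAGLN* and 5 others, 1371 against 576 to 650 in the other controls, with 0 of 8 markers at 0). *TAGLN* alone held 1145 RPKM of that sum, so the sum does not describe the list as a whole. The macrophage sum of control A was also the highest among the controls (*CD68*, *CD163*, *MRC1* and 2 others, 231 against 74.0 to 115). Of the nerve markers *UCHL1* and *SNAP25*, *UCHL1* was at 111 RPKM in control A and 122 RPKM in the case, the libraries with the lowest *ADRB3*, against 8.91 to 21.6 RPKM in the other controls, and *SNAP25* was at 2.85 RPKM in control A, within the 1.94 to 5.83 RPKM of the others. The part of these cells in its *ADRB3* level was not tested.

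**Figure D1:**
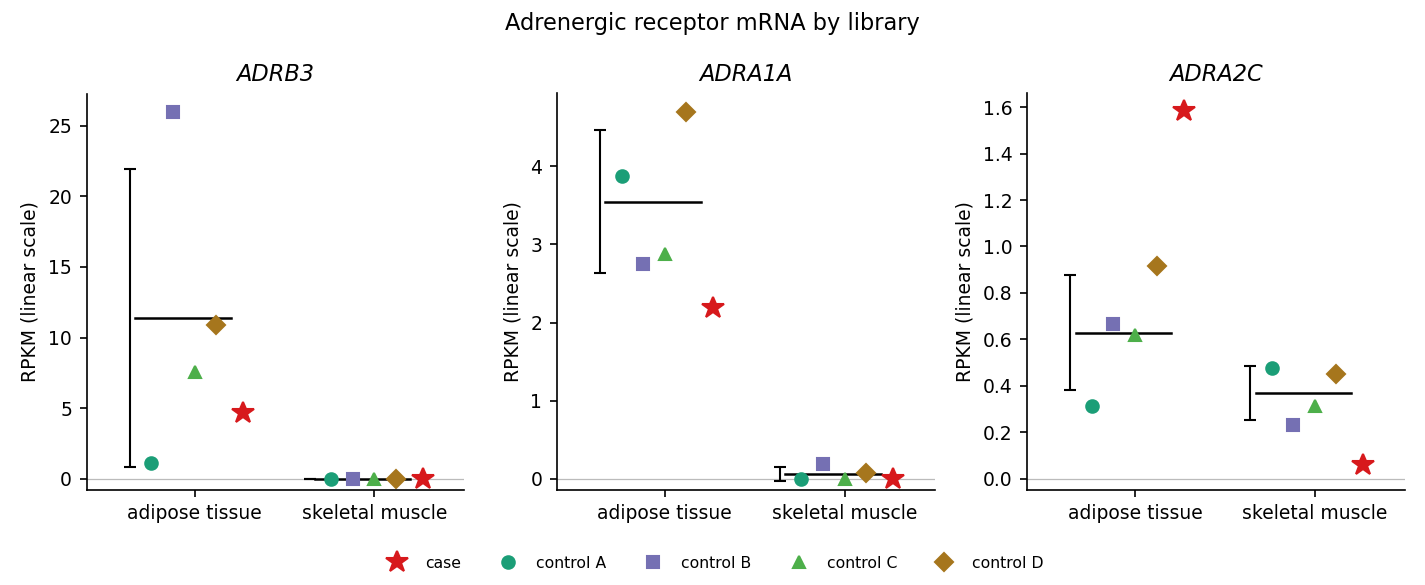
RPKM (linear axis, a separate range for each gene) of the 3 matched receptors in the adipose and muscle library of each monkey; horizontal lines and bars to their left give the mean and SD of the 4 controls, and the star is the hyperinsulinemic monkey. *ADRB3* ranges from 1.14 to 26.0 RPKM in control adipose tissue and is at 0 in every muscle library.

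The genes whose levels over the 10 libraries were most like those of *ADRB3*, by the root mean square difference of centred log2(RPKM + 0.1) among 8509 genes, were *PHGDH* (0.559), *AGPAT2* (0.709) and *TKT* (0.718). *PHGDH* encodes the first enzyme of serine synthesis, *AGPAT2* an enzyme of triglyceride synthesis, and *TKT* transketolase of the pentose phosphate pathway. In adipose tissue *PHGDH* was at 67.8 RPKM in control B, 38.4 RPKM in control D, 28.7 RPKM in control C, 14.0 RPKM in the case and 10.7 RPKM in control A, which is the order of *ADRB3* in these libraries. *AGPAT2* had the same order, from 966 RPKM in control B to 147 RPKM in control A. *TKT* had it with control C and control D exchanged. In muscle, where *ADRB3* had no reads, its values in this comparison are set by the added 0.1 RPKM. *PHGDH* was at 0.138 to 0.562 RPKM in the muscle libraries. *AGPAT2* was at 5.00 to 16.9 RPKM there and *TKT* at 2.94 to 8.80 RPKM. The likeness thus depends in part on the added constant. It chose these genes and is a description.

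**Figure D2:**
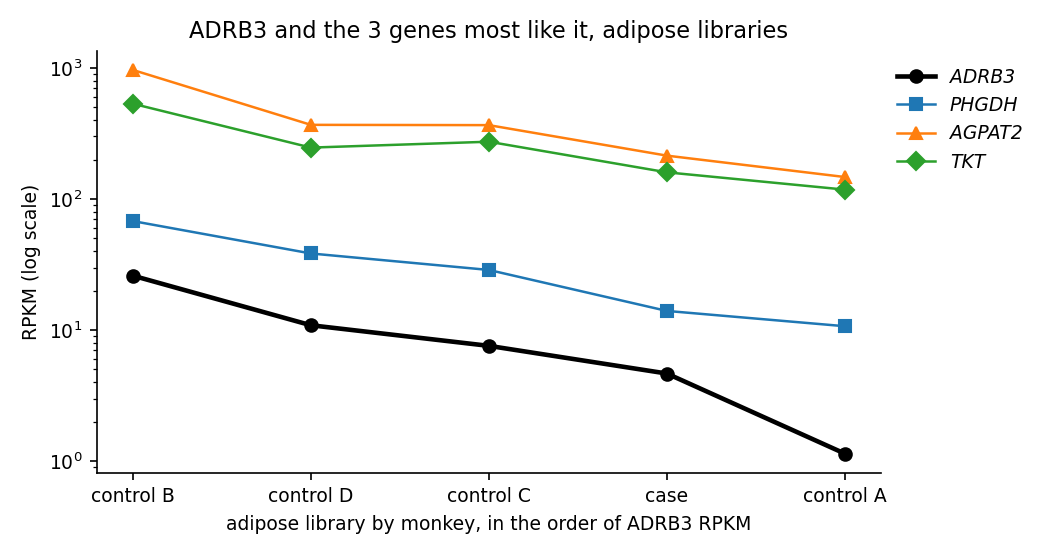
RPKM (log axis) of *ADRB3* and of the 3 genes most like it in the 5 adipose libraries, ordered by *ADRB3* from control B to control A. *ADRB3* falls furthest from left to right, from 26.0 to 1.14 RPKM. *PHGDH* and *AGPAT2* fall at every step with it, while *TKT* rises from control D to control C and falls elsewhere.

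*ADRA1A* (ENSMMUG00000023112) is on the minus strand of chromosome 8 (26922833 to 27019047), with a transcript model of 2444 bases. In control adipose tissue it was at 3.87 RPKM in control A, 2.75 RPKM in control B, 2.88 RPKM in control C and 4.70 RPKM in control D. Its mean was 3.55 ± 0.915 RPKM (SD, n = 4), from 206 to 452 reads, and its highest level was 1.71 times its lowest, a smaller ratio than that of 72.4% of genes. In muscle *ADRA1A* had 16 reads in control B (0.183 RPKM, exact Poisson 95% interval 0.105 to 0.298) and 6 reads in control D (0.0675 RPKM, 0.0248 to 0.147). It had 0 reads in the muscle of control A, control C and the case. Every adipose library was thus above every muscle library. Adipocyte markers without the doubtful *FABP4* row, a choice made after seeing the data, summed in muscle to 22.6 RPKM in control B and 67.4 RPKM in control D, which had *ADRA1A* reads, and to 55.5 RPKM in control A, 9.91 RPKM in control C and 32.0 RPKM in the case, which had none. Their part in the *ADRA1A* reads of muscle was not tested.

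The log2 difference of *ADRA1A* between adipose tissue and muscle in controls was 4.43 (standard error 0.893, 95% interval 2.49 to 6.36, edgeR adjusted p 0.00112). It was 5.87 without control B, 5.83 with scaling to the mapped reads and 5.09 with the animal as a block. *ADRA1A* passed the filter on low counts only through its adipose libraries, so that passing the test adds little to the levels themselves.

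*ADRA2C* (ENSMMUG00000014781) is on the minus strand of chromosome 1 (198469 to 200631), with a transcript length of 1467 bases. In control adipose tissue it was at 0.314 RPKM in control A, 0.667 RPKM in control B, 0.619 RPKM in control C and 0.917 RPKM in control D, from 15 to 53 reads. In control muscle it was at 0.476 RPKM, 0.229 RPKM, 0.315 RPKM and 0.450 RPKM in the same order of animals, from 12 to 27 reads. The tissues overlapped, and control A, the animal with the lowest level in adipose tissue, had the highest in muscle. The means were 0.629 ± 0.247 RPKM in adipose tissue and 0.368 ± 0.116 RPKM in muscle (SD, n = 4 each).

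The direction of *ADRA2C* between the tissues depended on the scaling, and neither passed the test. The log2 difference, adipose tissue minus muscle, was −0.66 with TMM (standard error 0.678, 95% interval −2.13 to 0.81, edgeR adjusted p 0.420) and 0.77 with scaling to the mapped reads (adjusted p 0.303). The median of all genes moved likewise, from 0.37 with TMM to 1.81 with the mapped reads, and the top 10 genes held 30.3% to 32.9% of counted reads in muscle and 5.35% to 8.09% in adipose tissue.

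In all, 2 of the 3 receptors were called between the tissues of the controls, both higher in adipose tissue. Over all 14045 genes tested 48.1% were called, and 28.1% were called higher in adipose tissue; with scaling to the mapped reads 9770 genes were called, 8854 of them higher. *ADRB3* and *ADRA1A* passed the filter on low counts only through their adipose libraries, so the count of called receptors carries no weight of its own.

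The next question was which receptor dominates in each tissue, taken as the share of each in the summed RPKM of the 3. In control adipose tissue *ADRB3* held 21.4% in control A, 88.4% in control B, 68.4% in control C and 66.0% in control D. It led in 3 of 4 controls and in the case, where it held 55.3%. In control A *ADRA1A* led with 72.7%. The mean shares in control adipose tissue were 61.0 ± 28.3% for *ADRB3*, 34.1 ± 27.1% for *ADRA1A* and 4.83 ± 1.72% for *ADRA2C* (SD, n = 4).

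In control muscle *ADRA2C* held the whole sum in controls A and C, 55.5% in control B and 87.0% in control D, a mean of 85.6 ± 21.0% (SD, n = 4), and *ADRA1A* held the rest. The sum itself was small in muscle, 0.315 to 0.517 RPKM in controls against 5.33 to 29.4 RPKM in control adipose tissue. In the case it was 0.0602 RPKM in muscle and 8.42 RPKM in adipose tissue. The shares of *ADRB3* and of *ADRA2C* did not overlap between the tissues of the controls. For *ADRB3* this follows from its 0 reads in muscle. The exact permutation test, two-sided, gave the smallest p that 4 against 4 libraries allow, 0.0286, for both, but the tissues come from the same animals, and paired by animal the exact sign-flip p was 0.13, the smallest that 4 pairs allow. For *ADRA1A* the exact p was 0.343. Of *ADRA1A* and *ADRA2C* alone, a comparison added after seeing the data, *ADRA2C* held 7.50% to 19.5% in control adipose tissue and 55.5% to 100% in control muscle. The 3 shares of a library sum to a whole and are not independent.

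**Figure D3:**
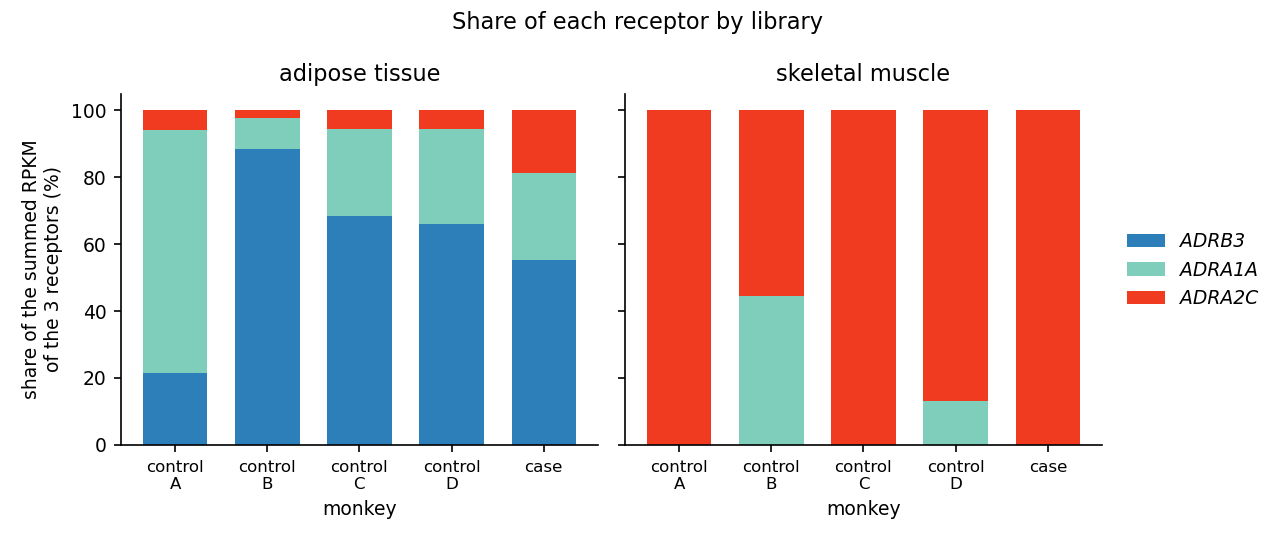
Share (%) of each receptor in the summed RPKM of the 3 matched receptors, 1 bar per library, adipose tissue on the left and muscle on the right. *ADRB3* is the largest segment of every adipose bar but that of control A, and *ADRA2C* is the largest segment of every muscle bar.

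Neighbours in the order of levels were compared within libraries. In adipose tissue *ADRB3* was above *ADRA1A* in 3 of 4 controls (mean log2 difference of RPKM 1.02 ± 2.07, SD, exact sign-flip permutation test, two-sided, p = 0.5), so these levels did not differ beyond their spread. *ADRA1A* was above *ADRA2C* in 4 of 4 controls (2.54 ± 0.708, exact p = 0.13, the smallest that 4 libraries allow). In muscle *ADRA2C* was above *ADRA1A* in 4 of 4 controls by RPKM (exact p = 0.13), and *ADRA1A* had reads where *ADRB3* had none in 2 of 4. In the muscle of control B the order rests on the transcript lengths, 2444 bases for *ADRA1A* and 1467 for *ADRA2C*. There *ADRA1A* had 16 reads and *ADRA2C* 12, or 57.1% and 42.9% of the summed reads, and their counting intervals in RPKM overlapped (0.105 to 0.298 and 0.118 to 0.400).

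Beta and alpha-2 receptors act on cAMP in opposite directions, and of these *ADRB3* and *ADRA2C* could be compared. The RPKM of *ADRB3* was 39.0 times that of *ADRA2C* in the adipose tissue of control B, 12.2 times in control C, 11.9 times in control D and 3.62 times in control A. It was 2.94 times in the case, below every control but close to control A. On the log2 scale, with 0.01 RPKM added to each, the ratio was 3.56 ± 1.40 in the controls (SD, n = 4) and 1.55 in the case (exact permutation test, two-sided, p = 0.4). In muscle the ratio is set by the added constant, since *ADRB3* had no reads, and it was not compared.

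The hyperinsulinemic monkey was then set against the 4 controls in each tissue. None of the 3 receptors was called in adipose tissue, where 0 of 14477 genes were (0%, edgeR adjusted p; 420 genes at an unadjusted p under 0.05; 12 genes by DESeq2). *ADRB3* was at 4.65 RPKM in the case, from 252 reads (exact Poisson 95% interval 222 to 285), between control A and the other controls. Its log2 difference was −1.54 (standard error 1.24, 95% interval −4.30 to 1.22), and −0.70 without control B. *ADRA1A* was at 2.18 RPKM in the case, from 223 reads, below all 4 controls (log2 difference −0.89, standard error 0.544, 95% interval −2.10 to 0.32). Its exact permutation p was 0.4 on RPKM, and 0.6 for *ADRB3*.

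*ADRA2C* was at 1.58 RPKM in the adipose tissue of the case, from 97 reads, and its counting interval of 1.28 to 1.93 RPKM lay above that of each control. Its log2 difference was 1.11 (standard error 0.895, 95% interval −0.88 to 3.10, edgeR adjusted p 1.0 over all genes), and the exact permutation p was 0.2, the smallest that 1 animal against 4 allows. Macrophage markers summed to 274 RPKM in this library against 74.0 to 231 in the controls and endothelial markers (*PECAM1*, *CDH5*, *VWF* and 2 others) to 189 against 104 to 157, with none of these markers at 0. Of the endothelial markers, *PECAM1* (92.3 against 48.4 to 79.3 RPKM) and *VWF* (45.2 against 18.4 to 38.6 RPKM) were above the controls. *CDH5*, *KDR* and *TEK* were within the range of the controls. *UCHL1* was also highest in this library, at 122 RPKM against 8.91 to 111 RPKM, while *SNAP25*, at 4.68 RPKM, was within the range of the controls. Their part in the *ADRA2C* level was not tested.

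In muscle *ADRA2C* was the only receptor that passed the filter on low counts. It had 3 reads in the case, or 0.0602 RPKM (exact Poisson 95% interval 0.0124 to 0.176), against 0.229 to 0.476 RPKM in the controls. The case was below all 4 controls, though its counting interval overlapped that of control B (0.118 to 0.400 RPKM). On the log2 scale the case differed by −2.74 (standard error 1.51, 95% interval −6.06 to 0.58, edgeR adjusted p 0.665) and the exact permutation p was 0.2. Over all genes 0 of 12172 were called (0%; 1055 at an unadjusted p under 0.05; 90 by DESeq2). Smooth muscle and pericyte markers, whose cells form vessel walls, summed to 60.1 RPKM in the muscle of the case against 99.9 to 143 in the controls. Of these markers, 0 of 8 were at 0. *ACTA2* (26.2 against 44.4 to 74.4 RPKM) and *TAGLN* (16.8 against 36.1 to 44.9 RPKM) held most of this sum. *MYH11*, *CNN1* and *CSPG4* were also below the controls, while *RGS5*, *PDGFRB* and *NOTCH3* were within their range. Endothelial markers summed to 28.9 RPKM, within the 24.4 to 35.2 RPKM of the controls. Macrophage markers summed to 5.41 RPKM against 5.58 to 17.6 RPKM. The part of these cells in the result was not tested.

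**Figure D4:**
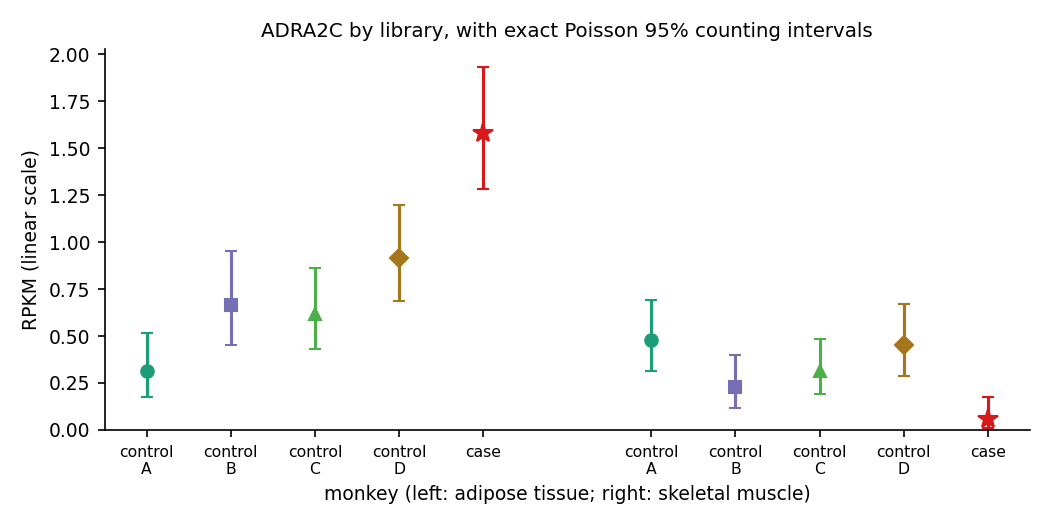
RPKM (linear axis) of *ADRA2C* in the 10 libraries with exact Poisson 95% intervals, which cover counting error only; adipose tissue on the left, muscle on the right, and the star is the hyperinsulinemic monkey. The case is the highest adipose library at 1.58 RPKM and the lowest muscle library at 0.0602 RPKM.

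The difference of the case effect between the tissues was tested by an interaction over all 10 libraries. For *ADRA2C* the adipose effect exceeded the muscle effect by 3.88 on the log2 scale (standard error 1.69, 95% interval 0.23 to 7.53), with an unadjusted p of 0.0388 and an adjusted p of 0.848 from edgeR. It thus did not pass over the 14153 genes tested, of which 0 were called (0%; 817 at an unadjusted p under 0.05; 5 by DESeq2). For *ADRA1A* it was 5.44 (standard error 4.02), with 0 reads in the muscle of the case. It could not be estimated for *ADRB3*, which had no reads in muscle.

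The genes that carry the signal of these receptors were taken as 7 lists. Of 36 pathway genes tested in the controls, 18 were called higher and 10 lower in adipose tissue with TMM scaling, where 48.1% of all genes tested were called and 28.1% called higher. With scaling to the mapped reads 23 were higher and 4 lower. Some of these genes were near 0 in control muscle, such as *PRKACB* (0 to 0.439 RPKM), *PDE3B* (0.0184 to 0.202 RPKM) and *SLC6A2* (0 to 0.0988 RPKM). Such genes may have passed the filter on low counts through 1 tissue alone. The counts of called genes in these lists thus carry no weight of their own. All pathway values below are log2 differences, adipose tissue minus muscle, with TMM scaling, from edgeR at an adjusted p under 0.05, and named genes kept their direction with the mapped reads but for *GNAS*. Of the 4 G protein alpha subunits, 2 were higher and 2 lower (list median 0.82 against 0.37 over all genes). The Gi subunits *GNAI1* (4.23, standard error 0.349) and *GNAI3* (2.72, standard error 0.341) were higher in adipose tissue. *GNA11*, which like Gq acts on phospholipase C, was lower (−1.61, standard error 0.243), a call lost with the mapped reads (−0.15, edgeR adjusted p 0.590). *GNAS*, the Gs subunit of the beta receptors, was at 246 ± 33.8 RPKM in adipose tissue and 190 ± 14.7 RPKM in muscle (SD, n = 4 each), and its log2 difference was −1.07 with TMM but 0.38 with the mapped reads.

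Adenylyl cyclases make cAMP, and they differed in kind between the tissues. Of 8 tested, 5 were higher in adipose tissue and 2 in muscle (list median 1.13). *ADCY5* was at 11.4 ± 2.75 RPKM in control adipose tissue and 0.400 ± 0.227 RPKM in muscle (log2 difference 3.39, standard error 0.404). *ADCY6* was higher too (2.0, standard error 0.278). *ADCY2* was at 0.175 ± 0.153 RPKM in adipose tissue and 40.7 ± 10.3 RPKM in muscle (log2 difference −9.34, standard error 0.541), and *ADCY1* was also lower in adipose tissue (−3.83, standard error 0.434).

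Of 5 subunits of protein kinase A, which cAMP activates, 2 were higher and 2 lower with TMM (list median 0.96), and 3 were higher and 0 lower with the mapped reads. The regulatory subunit *PRKAR2B* was at 115 ± 50.6 RPKM in control adipose tissue and 0.400 ± 0.203 RPKM in muscle (log2 difference 6.74, standard error 0.536), and the catalytic subunit *PRKACB* was higher too (3.71, standard error 0.908). The other catalytic subunit, *PRKACA*, was at 22.3 ± 5.31 RPKM in adipose tissue and 43.9 ± 3.05 RPKM in muscle (−2.42, standard error 0.233), and the regulatory subunit *PRKAR2A* was also lower (−2.12, standard error 0.231). With the mapped reads these were −0.98 and −0.65, short of the log2 difference of 1 that a call needs.

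Of 6 phosphodiesterases that break down cAMP, 2 were higher in adipose tissue and 3 lower (list median −1.68). *PDE3B*, the enzyme through which insulin restrains lipolysis in adipocytes, was at 22.7 ± 13.7 RPKM in adipose tissue and 0.0893 ± 0.0846 RPKM in muscle (log2 difference 6.59, standard error 0.715), and *PDE3A* was higher too (1.47, standard error 0.560), a call lost with the animal as a block (edgeR adjusted p 0.0602). *PDE4A* (−2.81, standard error 0.300) and *PDE4B* (−2.23, standard error 0.316) were lower, and with the mapped reads the call of *PDE4B* was lost (−0.78) and 1 of the list was lower. Of 4 phospholipase C beta genes, the effectors of alpha-1 receptors, *PLCB4* (2.89, standard error 0.645) and *PLCB2* (2.63, standard error 0.663) were higher and none was lower (list median 1.79).

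Receptor kinases and arrestins switch activated receptors off. Of 6 tested, 3 were higher in adipose tissue and 1 lower (list median 1.0), with the kinase *GRK3* at 34.3 ± 13.2 RPKM against 0.193 ± 0.147 RPKM in muscle (log2 difference 6.06, standard error 0.569) and the arrestin *ARRB1* at a log2 difference of 1.14 (standard error 0.279). Another receptor kinase, *GRK2*, was lower (−2.49, standard error 0.253). Of the genes of catecholamine synthesis, uptake and breakdown, 3 of the 5 matched were tested and 2 were higher (list median 2.70), namely monoamine oxidase A, *MAOA* (2.70, standard error 0.250), and the noradrenaline transporter *SLC6A2* (3.23, standard error 1.09). *SLC6A2* was low even in adipose tissue, at 1.08 ± 0.864 RPKM (SD, n = 4), and its call was lost with the animal as a block (edgeR adjusted p 0.0788).

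**Figure D5:**
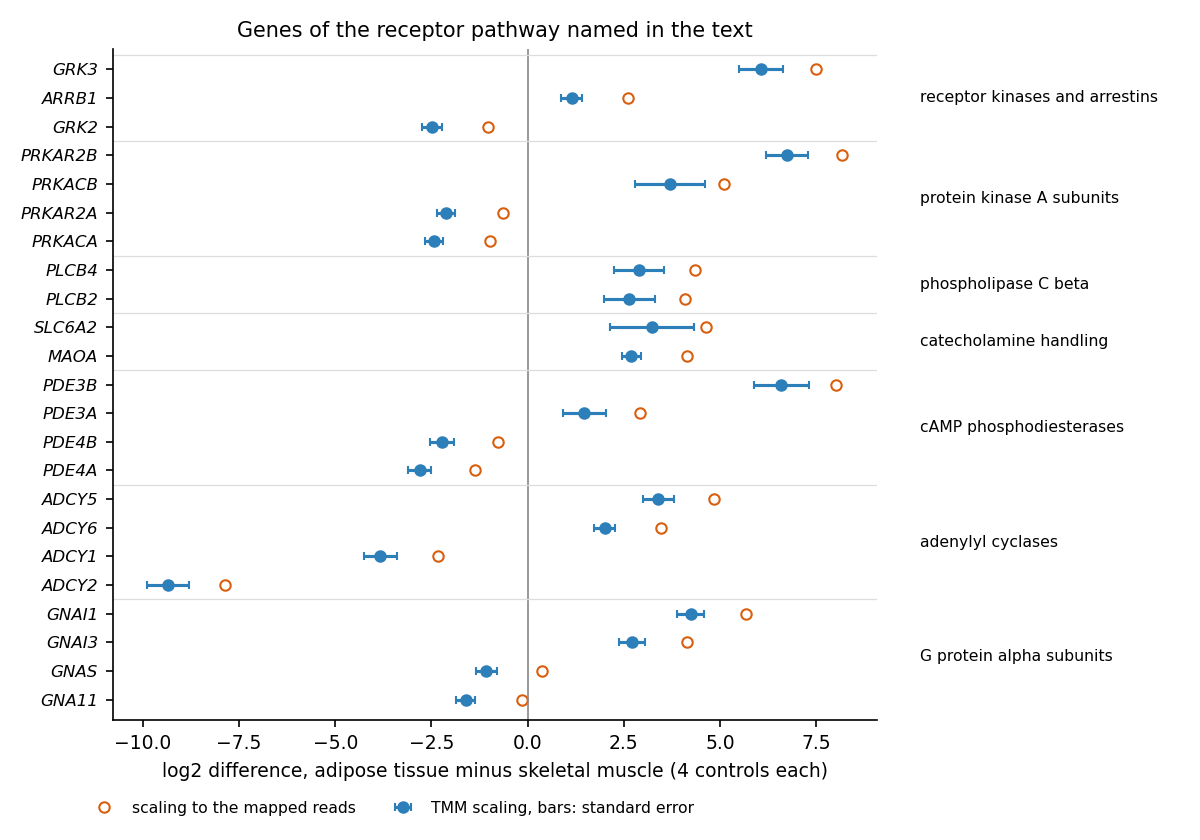
Log2 difference, adipose tissue minus muscle in 4 control libraries of each, of the pathway genes named in the text; filled points with standard errors use TMM scaling, open points scaling to the mapped reads. The open points lie to the right of the filled ones throughout, and *GNAS* is the gene whose points lie on either side of 0.

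No pathway gene was called between the case and the controls in either tissue or in the interaction. The values that stood out were chosen after they were seen. In adipose tissue *PDE3B* was at 4.28 RPKM in the case, below the 8.95 to 40.3 RPKM of the controls (log2 difference −2.62, standard error 0.837, edgeR p 0.0106 unadjusted and 1.0 adjusted). In muscle *MAOB*, the other monoamine oxidase, was at 2.24 RPKM in the case against 7.26 to 19.7 RPKM in the controls (−2.67, standard error 0.530, edgeR adjusted p 0.324). *MAOA* went the other way in the same library, at 10.4 RPKM against 4.14 to 6.18 RPKM. Other pathway genes also lay outside the range of the controls there, such as *PLCB1* at 1.75 RPKM against 0.538 to 0.681 RPKM.

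*ADRA2C*, the leading receptor of muscle, had levels over the 10 libraries most like those of *MGRN1* (root mean square difference 0.420), *RUSC1* (0.467) and *RPS23* (0.472). *MGRN1*, which encodes a ubiquitin ligase, was at 1.13 RPKM in the muscle of the case against 1.17 to 2.72 RPKM in control muscle, and at 5.25 RPKM in its adipose tissue against 2.52 to 5.11 RPKM in control adipose tissue. The likeness again chose the genes, and with 3 to 97 reads of *ADRA2C* per library it also rests on counting error.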

How the data were processed

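Poly(A) RNA of both tissues was sequenced by the authors as strand-specific libraries and mapped with TopHat (1.2.0 in the submitters' processing notes; the paper names another release), using uniquely mapped reads. The counting tool, genome build and annotation are not stated in what was read here. The deposited files hold read counts per gene, not normalized, and RPKM, which the authors made from the counts, and which equal the reads divided by transcript length and mapped total (relative deviation at most 5.0e-14). Starts are printed as counted from 1. An Ensembl name table gave symbols for 15556 of 28595 genes (54.4%). No sequence is printed, since none was used here.

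Counts were tested with edgeR 4.0.16 in R 4.3.3 (quasi-likelihood, TMM, mean of at least 10 reads over the libraries of the fit, two-sided, Benjamini-Hochberg over all genes tested, adjusted p under 0.05, and between tissues an absolute log2 difference from 1 upwards). The lone case is assumed to vary like the controls. Shares, orders and ratios were tested exactly with Python 3.11.15. The ratio of beta to alpha-2 receptors, planned over more genes, was made from *ADRB3* and *ADRA2C*. The scripts were tested on simulated data.

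The receptors, the lists and the 7 marker lists were chosen with earlier results of these data known. Named genes are the receptors, per list up to 2 called genes each way with the smallest p, and the 3 genes most like the leading receptor of each tissue (mean of at least 1 RPKM). Mesothelial markers (*MSLN*, *KRT19*, *WT1*) were called higher in adipose tissue for 3 of 3. The summed level of 1 marker list is not reported here. Alternatives were median-of-ratios scaling, mapped totals, DESeq2 1.42.0, a filter at 1 RPKM, no filter, each control left out, the adipose libraries of controls A and C left out, the animal as a block, a fit of all 10 libraries, shares of reads and a pseudocount of 0.1 RPKM. The labels give both libraries of an animal its number, which pairs them; their deviations from the control means were correlated over 14045 genes at −0.154 to 0.159. The fits reported first have no block.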

Additional observations from a re-analysis of the deposited data

Results flagged for a closer look

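*ADRA2C* held 2.27% of the summed RPKM of the 3 receptors in the adipose tissue of control B, apart from the 5.56% to 5.90% of the other controls (gap over range 0.907, past Dixon's 95% critical value); this was 1 of 15 groups screened, and chance flags about 1 in 20 groups. Its RPKM in that library was not the lowest of the controls, while *ADRB3* was the highest.

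The case effect on *ADRA2C* pointed in opposite directions in the tissues, with the case above all 4 controls in adipose tissue and below all 4 in muscle. This flag rests on 1 case animal and on 3 reads in its muscle. How often other genes show such a pattern was not counted. On the log2 scale the effects lay 3.88 apart, and the test of that difference did not pass (edgeR adjusted p 0.848; 0.546 to 1.0 over the alternatives, DESeq2 giving none).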

How the results depend on the processing

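Of 97 values of single receptors under the alternatives, 96 kept their direction, and the exception was *ADRA2C* between tissues, 0.77 with scaling to the mapped totals. Where an adjusted p was given, these 96 also kept their side of the threshold. DESeq2 gave none for *ADRA2C* in the difference of the case effect between tissues, so its side there is not known. Genes called in the case comparisons rose from 0 to 12 in adipose tissue, 90 in muscle and 5 for the difference between tissues with DESeq2, to 10 in muscle with no filter and to 32 in adipose tissue without the fat libraries of controls A and C, with no receptor among those called; the cause was not tested. Leaving out 1 control gave 0 to 8 genes in adipose tissue (8 without control A) and 0 to 3 in muscle (3 without control C). The share of *ADRB3*, adipose tissue minus muscle, was then 51.9 to 74.2 percentage points and that of *ADRA2C* −90.0 to −76.3, each at exact p = 0.1, the smallest that 3 against 3 allows. Paired by animal, a test added after seeing the data, these differences of 61.0 and −80.8 percentage points had an exact p of 0.13, the smallest that 4 pairs allow. The planned ratio between tissues was not run, since *ADRB3* had no reads in muscle. With the replicate block, 6622 genes were called between tissues, *ADRA1A* was at 5.09 and *ADRA2C* at −0.69, and *ADRA2C* was at 3.91 for the difference between tissues; no receptor call changed, while the calls of *SLC6A2* (adjusted p 0.0788) and *PDE3A* (0.0602) were lost. Depth limits *ADRA2C*, with 3 to 97 reads per library, and in muscle also *ADRA1A* (0 to 16 reads) and *ADRB3* (0 reads).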
